A study of Danio rerio with 15 samples.

Results

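The change with age was examined in *mpeg1*+ cells of control zebrafish, by comparing 3 single fish at 1.5 months post fertilization (mpf) with 3 single fish at 33 days post fertilization (dpf). These 6 libraries were chosen by their labels from the 15 of the series. All 35117 genes of the deposited table were considered, of which 17640 had enough reads to be tested. The control fish are labelled wildtype tg(mpeg-GFP) and carried only reporter transgenes, so that the macrophage promoter *mpeg1* drove the green fluorescent protein by which cells were sorted. The remaining groups, of 3 fish each, were csf1rDM fish at both ages (csf1raj4e1/j4e1;csf1rbre01/re01 tg(mpeg-GFP), mutant in both zebrafish genes for the Csf1 receptor) and *il34* mutants at 1.5 mpf (il34re03/re03 tg(mpeg-GFP)). Titles of the older samples give 5 months, whereas their recorded stage and the paper give 1.5 mpf, which is used here. Each fish was cut up whole and dissociated in trypsin on ice for 1 hour, and single live cells that were GFP+ and within the light scatter gate of myeloid cells, outside which most lymphocytes lie, were sorted straight into Trizol. Each library therefore mixes *mpeg1*+ cells of all organs within that gate, and in such bulk samples fewer cells of a type and less RNA per cell cannot be told apart. The labels give no day or hour of sorting, so age cannot be told apart from the day and hour at which the fish of each age were collected.

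Macrophages engulf particles and dying cells, digest them in lysosomes and present antigen on MHC class II molecules. Their identity depends on transcription factors such as PU.1 and the C/EBP family, and most of them need signalling through the Csf1 receptor. In zebrafish, *mpeg1* also marks metaphocytes, ectoderm-derived cells that resemble macrophages but do not engulf, and it is expressed in B cells. Roles of genes given below are those known mainly from mammals. The lists in which genes are counted below were chosen with earlier results of these data known, so the shares called in them are descriptive. Symbols in capitals were taken over from the human gene and do not tell zebrafish duplicates apart, so identifiers are given for the genes that matter most.

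The 6 control libraries held between 5488201 and 11638551 counts. The number of genes with at least 1 count was 16379, 15758 and 17020 at 33 dpf and 20386, 14964 and 14686 at 1.5 mpf. Fish 1 at 1.5 mpf thus stood apart, also when counts were drawn down to equal depth (19857 genes, against 14366 to 16683 in the other 5 controls). Its summed level of 30 transcripts of pancreas and liver was 3521 CPM (counts scaled to the library total and the TMM factor), against 500.4 and 380.5 in the other fish of its age and 104.9 to 164.1 at 33 dpf. Fish 1 at 33 dpf carried more skeletal muscle transcripts than the others, 3893 CPM against 879.2 and 923.2. Both fish were kept, and results are also given without fish 1 at 1.5 mpf where this matters.

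The 6 control libraries differed by age in the level of 207 genes, which is 1.17% of those tested, with 131 higher (0.743%) and 76 lower (0.431%) at 1.5 mpf (edgeR's quasi-likelihood test, Benjamini-Hochberg adjusted p under 0.05). Genes that rose did so by a median of 1.91 on the log2 scale and genes that fell by a median of -1.40, and 61 rose but only 9 fell by more than 2. The smallest p-values among the rises belonged to *nr1d2a*, *CXCR4*, *tsc22d3*, *arl5c* and *CEBPB*, and those among the falls to *PA2G4*, *tubb2b* and *EIF5A2*. For each of the 207 genes the 3 fish of one age all lay above the 3 of the other, as they did for 18.9% of all genes tested. Across all genes the median change was 0.05 on the log2 scale. Scaling to library size alone shifted that median to -0.17, and then 222 genes were called, of which 58.6% were lower, against 36.7% with the scaling used here (TMM). The number called depended on single fish. It fell to 99 without fish 1 and 110 without fish 3 at 33 dpf, and to 101 without fish 2 and 100 without fish 3 at 1.5 mpf. With a spread estimated from the 6 controls alone, 42 genes were called, 39 higher and 3 lower (7.14% lower), of which 37 were among the 207, so that nearly all of the 76 falls lost their call. Of the 74 genes called and chosen for naming, 20 kept their call in that fit. DESeq2 called 876 genes, of which 206 were among the 207.

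**Figure D1:**
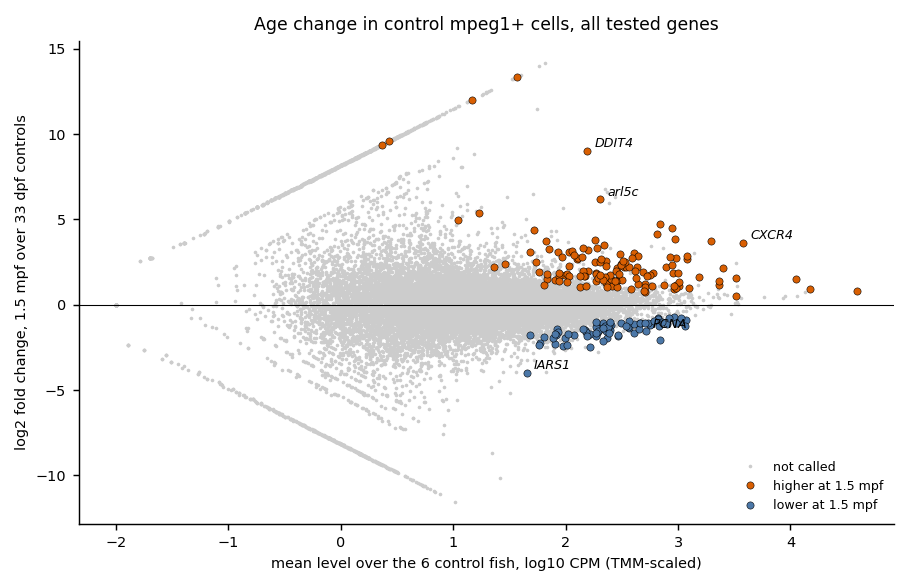
Each point is 1 of the 17640 genes tested, with its mean level over the 6 controls as log10 CPM on the x axis and its log2 fold change at 1.5 mpf over 33 dpf on the y axis. The 131 genes called higher (orange) reach larger changes than the 76 called lower (blue), and the outermost straight lines are genes with no counts at one of the ages.

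Transcription factors of the C/EBP family, which direct myeloid differentiation, were among the genes that changed most clearly. *CEBPB* (ENSDARG00000042725) lay at 237, 333 and 262 CPM in the 3 controls at 33 dpf and at 3583, 3539 and 3914 CPM at 1.5 mpf. The fish of each age were close to each other and far from the other age, a log2 fold change of 3.73 (SE 0.29, adjusted p = 1.97e-05 by edgeR). *CEBPA* (ENSDARG00000036074) rose from 235, 333 and 295 CPM to 1484, 1420 and 1484 CPM, by 2.35 on the log2 scale (adjusted p = 0.000295 by edgeR), again without overlap. *CEBPD*, looked up after these values were seen, was almost silent at 33 dpf, at 5.54, 2.48 and 6.47 CPM, and stood at 125, 128 and 46 CPM at 1.5 mpf (log2 fold change 4.36, SE 0.73, edgeR adjusted p = 0.00903). Of the 4 tested genes of this family, gathered after the values were seen, 3 were higher and none was lower, beside 0.743% of all genes higher. *CEBPD* lost its call without fish 1 at 33 dpf and with the 6 controls alone.

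Of the receptors and ligands of cell migration, 3 rose. *CXCR4* (ENSDARG00000041959), the receptor for Cxcl12 that holds blood cells in their niches, had 576, 529.7 and 566 CPM at 33 dpf and 5892, 7298 and 7723 CPM at 1.5 mpf. It was the second most clearly changed gene, with a log2 fold change of 3.64 (SE 0.25, edgeR adjusted p = 1.30e-05). *CCR9*, a receptor that guides lymphocytes to the gut, went from 239.8, 477 and 142 CPM to 1945, 2189 and 2158 CPM, and the chemokine *ccl35.1* from 58.6, 157 and 186 CPM to 474, 457 and 465 CPM. In both the younger fish varied severalfold while the older ones were nearly equal. Of 24 chemokines and receptors tested, these 3 were higher, beside 0.743% of all genes, and none was lower, and the median log2 fold change was 1.01, with 22 of 24 positive. *ccl35.1* lost its call without fish 2 or fish 3 at 1.5 mpf, and it and *CCR9* did with the 6 controls alone. Their summed level was 1998, 2537 and 1950 CPM at 33 dpf and 9844, 12200 and 12080 CPM at 1.5 mpf, a rise carried mostly by *CXCR4*. *CMKLR1*, the receptor of the attractant chemerin, stood at 389, 437 and 481 CPM and then at 1233, 1843 and 1638 CPM (log2 fold change 1.85, edgeR adjusted p = 0.0309). *CMKLR1* missed the threshold without any 1 of 5 of the 6 fish, the exception being fish 1 at 1.5 mpf, and with scaling to library size alone.

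The clock repressor gene *nr1d2a* (ENSDARG00000003820), one of the Rev-erb nuclear receptors, had the smallest p of all genes. Its levels were 60.1, 72.6 and 73.1 CPM at 33 dpf and 1365, 1285 and 1030 CPM at 1.5 mpf, so that every older fish was far above every younger one (log2 fold change 4.16, SE 0.28, edgeR adjusted p = 1.30e-05). Its paralogue *NR1D1* moved from 55.4, 16.9 and 19.6 CPM to 324, 325 and 200.4 CPM. Among 30 clock genes tested, these 2 were higher, beside 0.743% of all genes, and none was lower, and 11 were higher and 3 lower without overlap between the ages, against 9.74% and 9.15% of all genes. *NR1D1* lost its call without fish 3 at 33 dpf and with the 6 controls alone. The clock genes' summed level rose from 2186 to 2328 CPM at 33 dpf to 4468 to 5231 CPM at 1.5 mpf. Within that sum, *nr1d2a* alone went from a mean of 68.6 to 1227 CPM. The list's median log2 fold change was 0.70, with 20 of 30 positive. In csf1rDM fish that median was -0.025, although *nr1d2a* rose by 2.24 there. The list's summed level in csf1rDM fish was 3002 to 3304 CPM at 33 dpf and 2532 to 3442 CPM at 1.5 mpf. As the hour of sorting is not given, the part of the time of day in these values was not tested.

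Of the genes that respond to hormones, 2 that glucocorticoids induce rose in older controls. *tsc22d3* (ENSDARG00000075666), which encodes the glucocorticoid-induced leucine zipper protein, had 68, 74.8 and 78.4 CPM at 33 dpf and 1570, 1747 and 1711 CPM at 1.5 mpf (log2 fold change 4.51, SE 0.34, edgeR adjusted p = 1.97e-05). *FKBP5*, a co-chaperone of the glucocorticoid receptor, went from 449.9, 70.5 and 119 CPM to 1547, 1634 and 1231 CPM, with 1 younger fish high, and was called by a narrow margin (adjusted p = 0.0485 by edgeR) that 10 of 16 alternatives undid. In the list of 27 tested genes of hormone and growth factor response, these 2 were higher, beside 0.743% of all genes, none was lower and the median change was 1.96.

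Of 23 immediate early and stress genes tested, 4 were higher and 1 was lower, beside 0.743% and 0.431% of all genes, and the median change was 1.85. *DUSP1* (ENSDARG00000100515), a phosphatase that switches off MAP kinases, showed 40.2, 57.9 and 53.2 CPM at 33 dpf and 1533, 1496 and 936 CPM at 1.5 mpf, a log2 fold change of 4.71 (SE 0.37, edgeR adjusted p = 1.97e-05). The antiproliferative gene *BTG2* and the transcription factor genes *KLF6* and *JUNB* were the other 3, with log2 fold changes of 3.81, 1.54 and 1.38. *klf2b* went the other way, from 186, 239.8 and 250.0 CPM to 50.2, 104 and 72.2 CPM. The calls of *JUNB* and *klf2b* were lost without any 1 of at least 5 of the 6 controls. With the 6 controls alone, *BTG2* (edgeR adjusted p = 0.0551), *JUNB* and *klf2b* lost their calls, and *DUSP1* and *KLF6* kept them. Genes of this kind also respond to the dissociation of tissue into cells. The list's summed level was 1234 to 1458 CPM at 33 dpf, and at 1.5 mpf it was 6801 CPM in fish 1 and 3846 and 3374 CPM in the other fish. None of 17 heat shock genes was called, beside 1.17% of all genes, and their median change was -0.16. The part of the dissociation in these rises was not tested.

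Further genes with small p-values encode regulators of signalling and fuel use. *DDIT4* (ENSDARG00000037618), an inhibitor of the growth kinase complex mTORC1, was close to absent at 33 dpf, with 0.924, 0.165 and 0.531 CPM, and reached 305, 392 and 235 CPM at 1.5 mpf. Its log2 fold change of 9.02 (SE 0.87, edgeR adjusted p = 0.000143) rests on few counts in the younger fish. *SESN1*, a sestrin that restrains the same complex, rose from 177, 193 and 245 CPM to 654, 919.9 and 732 CPM, and *CCNG2*, a cyclin of cells leaving the cycle, from 50.1, 34.6 and 20.8 CPM to 371, 429 and 405 CPM. All older fish exceeded all younger ones in each. *PIK3R1*, a regulatory subunit of phosphoinositide 3-kinase, rose by 1.98 on the log2 scale, *MKNK2*, a kinase of the translation factor eIF4E, by 2.73, and *PDK2*, a kinase that closes the pyruvate dehydrogenase step, by 3.83 (edgeR adjusted p = 0.000116, 0.000162 and 1.97e-05). *arl5c*, a small GTPase of the Arf-like family, stood at 3.54, 4.96 and 7.96 CPM and then at 472, 403 and 326 CPM, and the regulator of G protein signalling *rgs13a* at 20.9, 50.9 and 33.1 CPM and then 358, 285 and 401 CPM. All of these calls held under each of the 16 alternatives. Of the genes with no count in the younger fish, *tnfrsfa* reached 66.8, 67.5 and 84.8 CPM and *si:dkey-37f18.3* 24.4, 33.5 and 29.4 CPM, at least 147-fold and at least 58.7-fold above the level that 3 counts would give in the shallowest younger library. *tnfrsfa* lost its call whenever 1 control was left out.

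**Figure D2:**
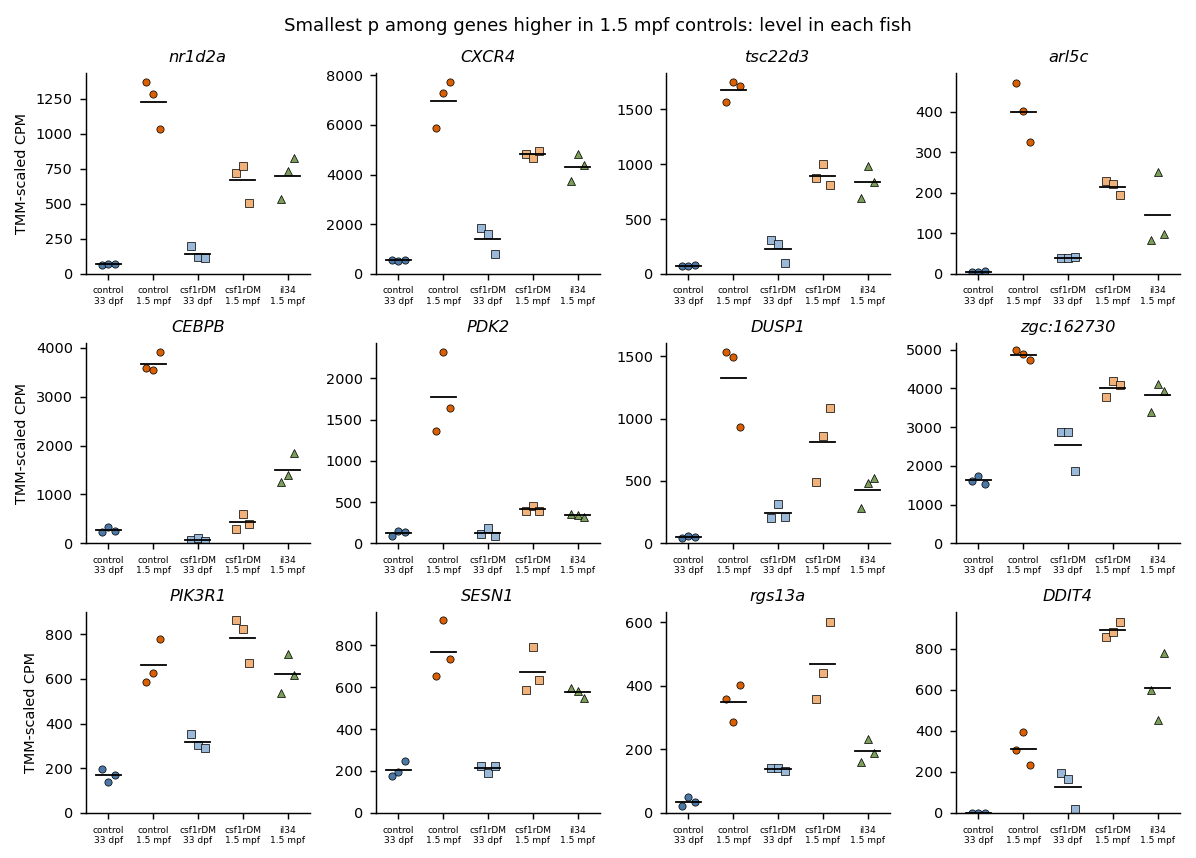
TMM-scaled CPM in each fish (y axis, from 0) of the 12 genes with the smallest p among those higher at 1.5 mpf, by group on the x axis, with a line at the mean of 3 fish. In each panel the 3 controls at 1.5 mpf (orange circles) lie above the 3 at 33 dpf (blue circles), as *CEBPB* does with 3539 CPM or more against 333 CPM or less.

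Of the genes of antigen presentation on MHC class II, 3 were higher in the older fish. *cd74a* (ENSDARG00000009087), an invariant chain that escorts class II molecules, had 4592, 6837 and 5989 CPM at 33 dpf and 12927, 17976 and 18415 CPM at 1.5 mpf. The ages did not overlap, and the log2 fold change was 1.5 (SE 0.20, edgeR adjusted p = 0.00174). *cd74b* rose by 1.33 (edgeR adjusted p = 0.00663), and *cd83*, which stabilises class II on the surface, from 46.3, 179.8 and 79.3 CPM to 551, 497 and 495 CPM. These were 3 of the 14 class II genes tested, beside 0.743% of all genes higher, none was lower, and all 14 log2 fold changes were positive with a median of 0.86. Their summed level was 6673, 10710 and 8635 CPM at 33 dpf and 18310, 22290 and 25160 CPM at 1.5 mpf, a rise carried mostly by *cd74a*. All 3 calls remained without fish 1 at 1.5 mpf, but *cd83* lost its call without fish 3 at 33 dpf, and all 3 did with the 6 controls alone (edgeR adjusted p = 0.055 for *cd74a*, 0.0983 for *cd74b* and 0.126 for *cd83*).

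For class I, *mhc1zba* rose from 1155, 1842 and 1264 CPM to 2983, 3634 and 3081 CPM, and *b2m* and *b2ml*, for the light chain of class I, by 1.77 and 0.92 on the log2 scale (edgeR adjusted p = 0.00607, 0.00638 and 0.0168). These 3 of 20 tested genes were higher, beside 0.743% of all genes, none was lower, and the median was 0.62. All 3 lost their calls with the 6 controls alone, and *b2ml* also with scaling to library size alone and without fish 2 or fish 3 at 1.5 mpf. Of 20 interferon response genes only *b2m* was called, beside 0.743% of all genes higher, and the median was 0.02, or -0.21 with scaling to library size alone. Among inflammatory cytokines *tnfa* passed at an adjusted p of 0.0496 by edgeR, with 6.01, 12.7 and 9.55 CPM and then 39.3, 37.2 and 69.7 CPM, a call that 14 of 16 alternatives undid, whereas *il1b* lay at 74.6, 118 and 55.3 CPM and 70.4, 108 and 64.7 CPM.

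Of the genes of DNA replication and cell division, 3 fell at 1.5 mpf. *PCNA* (ENSDARG00000054155), the sliding clamp of DNA polymerase, fell from 842, 585 and 888 CPM in the 3 younger controls to 339.9, 254 and 195 CPM in the older ones. The lowest younger fish was above the highest older fish, and the log2 fold change was -1.55 (SE 0.25, edgeR adjusted p = 0.00641). *RRM1*, a subunit of the reductase that makes deoxynucleotides, went from 531, 299 and 529.8 CPM to 174, 141 and 66.9 CPM, and the tubulin gene *tubb2b* from 1994, 1269 and 1638 CPM to 805, 617 and 662 CPM (adjusted p = 0.0475 and 0.00243 by edgeR). The call of *RRM1* was lost without any 1 of 5 of the 6 controls, all but fish 2 at 33 dpf. With the 6 controls alone, all 3 calls were lost (edgeR adjusted p = 0.0771 for *PCNA*, 0.0722 for *tubb2b* and 0.138 for *RRM1*). Of 37 proliferation genes tested, these 3 were lower and none was higher, beside 0.431% of all genes lower. The median change of the list was -1.04. Without overlap between the ages, 19 were lower, beside 9.15% of all genes, and none was higher. Summed over the list, the level was 8572, 5845 and 7067 CPM at 33 dpf and 3992, 3288 and 3000 CPM at 1.5 mpf. The helicase subunits *MCM2* to *MCM7* of the replication fork, with log2 fold changes from -1.91 (*MCM6*) to -1.22 (*MCM4*), did not pass the test.

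Genes with roles in protein synthesis and ribosome assembly were also among those that fell. *PA2G4* (ENSDARG00000039578), a growth-regulated protein that binds ribosomes, had the smallest p of the genes that fell, with 775, 499 and 691 CPM at 33 dpf and 229.9, 221 and 279 CPM at 1.5 mpf (log2 fold change -1.43, SE 0.19, edgeR adjusted p = 0.00196). *FBL* (ENSDARG00000053912), the fibrillarin that methylates ribosomal RNA, fell from 459.7, 263 and 315 CPM to 81.5, 76.3 and 83.1 CPM, by 2.11 on the log2 scale (edgeR adjusted p = 0.00448). It differed severalfold between the ages while the 3 older fish were within a few CPM of each other. Other nucleolar genes that fell were *pdcd11*, from 301, 291 and 246 CPM to 71.3, 29.2 and 52.2 CPM, *mybbp1a*, from 239, 119 and 159.7 CPM to 41.6, 23.9 and 37.4 CPM, and *bxdc2*, whose log2 fold change was -2.35 and whose call was lost without any 1 of 4 of the 6 controls. *ABCE1*, which recycles ribosomes after translation, changed by -1.97, and the translation factor gene *EIF5A2* by -1.01. Without overlap between the ages as well, *IARS1*, the isoleucyl-tRNA synthetase, went from 130.3, 65.5 and 58.4 CPM to 11, 1.36 and 3.77 CPM, with a log2 fold change of -3.98 (SE 0.85, edgeR adjusted p = 0.0406). Its call was lost without any 1 of 5 of the 6 controls, all but fish 1 at 1.5 mpf. With the 6 controls alone, *FBL* kept its call and every other gene named in this paragraph lost it. The edgeR adjusted p in that fit was 0.0579 for *PA2G4*, 0.0554 for *pdcd11*, 0.0672 for *mybbp1a*, 0.0574 for *ABCE1* and 0.0805 for *EIF5A2*.

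Families of these genes were gathered by name after the values had been seen, so their counts describe them only. Of 27 tested NOP, NOC, RRP and UTP genes of the nucleolus, 2 (*NOC2L* and *RRP12*) were lower, beside 0.431% of all genes, 17 were lower without overlap between the ages, beside 9.15% of all genes, and the median change was -1.14. *NOC2L* lost its call whenever 1 control was left out and *RRP12* without any 1 of 4 of them. Of 19 cytosolic aminoacyl-tRNA synthetases, *IARS1* and *QARS1*, which lost its call without any 1 of 4 controls, were lower, beside 0.431% of all genes. All 19 changes were negative and the median was -1.40. All 9 subunits of the chaperonin CCT, which folds actin and tubulin, had negative changes, and *CCT4*, *CCT5* and *CCT6B* were called lower, beside the same 0.431%. Each lost its call without any 1 of at least 2 of the controls. Of 46 proteasome subunits 4 were lower, namely *PSMC4*, *PSMC6* and 2 genes named *PSMD2*, which may share reads, and 31 were lower without overlap, beside 0.431% and 9.15% of all genes. *PSMC6* and 1 of the *PSMD2* genes lost their calls without any 1 of 4 or more of the controls, and with the 6 controls alone every call in these 4 families was lost. *PSMC4* had 291, 229 and 268 CPM at 33 dpf and 107, 111 and 101 CPM at 1.5 mpf. None of these 4 families had a member called higher.

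Of the 73 genes tested for proteins of the cytosolic ribosome itself none was called, beside 1.17% of all genes. Among them 69 had a positive log2 fold change, with a median of 0.30. Without overlap between the ages, 14 were higher and none was lower, beside 9.74% and 9.15% of all genes. With scaling to library size alone, 49 of the 73 were positive and the median was 0.06. Of 58 nuclear genes of oxidative phosphorylation 1 was lower, beside 0.431% of all genes, and without overlap 1 was higher and 17 were lower. The called gene was *UQCRC1* of complex III, from 399, 280.2 and 275 CPM to 147, 139 and 111 CPM, a call lost without any 1 of 4 of the 6 controls. None of the 12 mitochondrially encoded genes or 32 glycolysis genes was called, beside 1.17% of all genes. In the endoplasmic reticulum, *DDOST*, a subunit of the enzyme that attaches sugar chains, and *DNAJB11*, a co-chaperone, fell by 1.3 and 1.5 on the log2 scale (edgeR adjusted p = 0.00823 and 0.0056). The tubulin gene *tuba5* and *DBNL*, which links actin to vesicle uptake, fell by 1.11 and 2.28 (edgeR adjusted p = 0.0063 and 0.00533). With the 6 controls alone, *UQCRC1*, *DDOST*, *DNAJB11*, *tuba5* and *DBNL* all lost their calls.

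**Figure D3:**
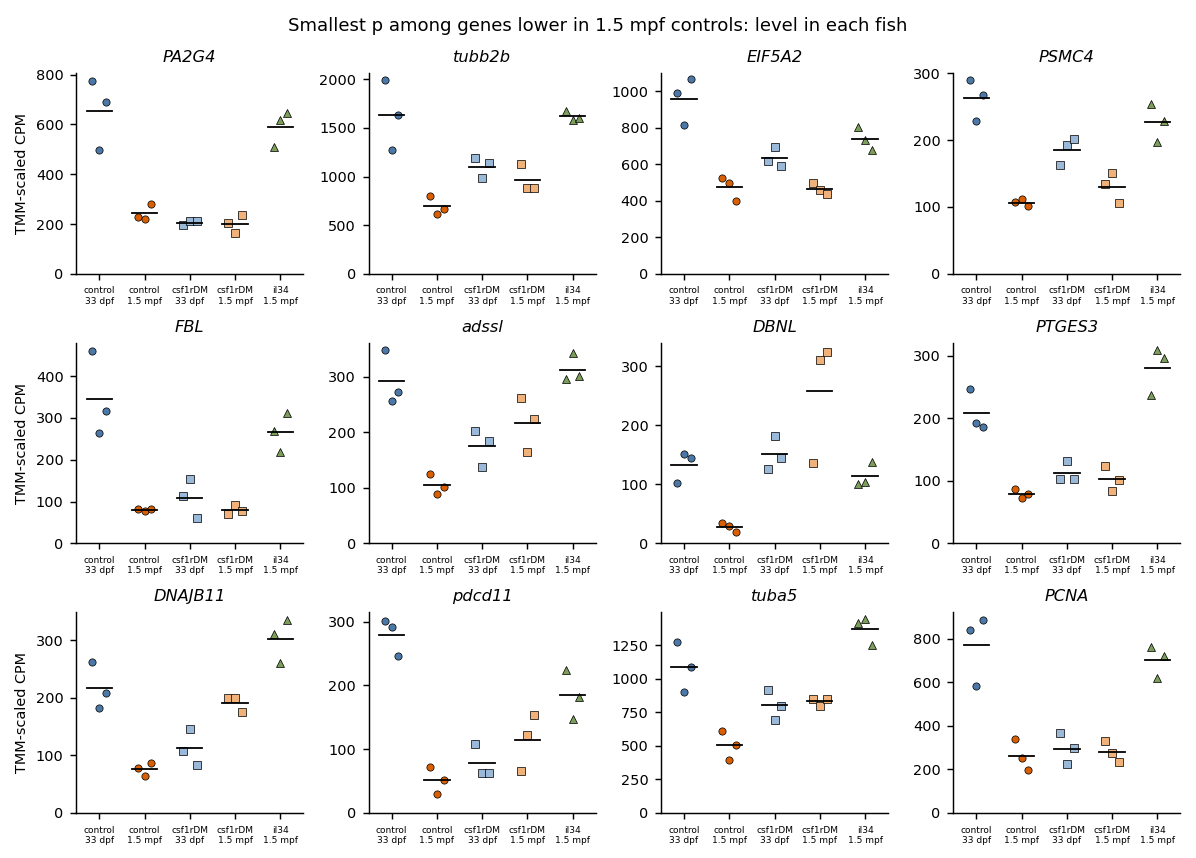
TMM-scaled CPM in each fish (y axis, from 0) of the 12 genes with the smallest p among those lower at 1.5 mpf, by group on the x axis, with a line at the mean of 3 fish. The controls at 1.5 mpf (orange circles) lie below those at 33 dpf (blue circles) in every panel, for *PCNA* at 340 CPM or less against 585 CPM or more.

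The genes that mark *mpeg1*+ cells were at hand at both ages. The *MPEG1* gene with most counts (ENSDARG00000055290) lay at 3235, 3890 and 2356 CPM at 33 dpf and 3450, 3788 and 3248 CPM at 1.5 mpf, and the leukocyte phosphatase gene *ptprc* at 757, 710.1 and 811 CPM and 836, 975 and 1021 CPM (edgeR adjusted p = 1 and 0.416). A second gene named *MPEG1* (ENSDARG00000043093) was 2.5-fold higher at 1.5 mpf and was not called. Its log2 fold change ran from 1.08 to 1.53 over the 16 alternatives. The receptor genes *csf1ra* and *csf1rb* had 163, 183 and 177 CPM and 228, 113 and 252 CPM in the younger fish and 198, 115 and 206 CPM and 243, 405 and 213 CPM in the older. Their log2 fold changes of -0.01 (SE 1.31) and 0.54 (SE 0.70) did not pass the test. Both errors rest on a spread estimated over all 15 libraries. These include csf1rDM fish, in which *csf1ra* lay at 0, 33.9 and 0.077 CPM at 33 dpf. Over the 16 alternatives the change in controls ran from -0.25 to 0.14 for *csf1ra* and from 0.14 to 0.71 for *csf1rb*. Of 27 macrophage identity genes tested, *CEBPB*, *CEBPA* and *CMKLR1* were higher, beside 0.743% of all genes, none was lower and the median was 0.29. None of 23 phagocytosis genes and none of 7 genes for C1q and other complement proteins was called, beside 1.17% of all genes, with medians of 0.35 and 0.88. Without overlap, 7 identity genes were higher and 1 lower, and 6 phagocytosis genes were higher and none lower. The shares over all genes were 9.74% and 9.15%. For *c1qa*, *c1qb* and *c1qc* the 3 older fish were above the 3 younger, with adjusted p-values of 0.741, 0.904 and 0.845 by edgeR. Of 29 lysosome genes only *CTSZ*, a cathepsin, was called, from 369, 323 and 298 CPM to 519.6, 683 and 856 CPM, and 8 were higher and none lower without overlap. *NCF1*, a subunit of the phagocyte oxidase, was the 1 of 14 pan-leukocyte genes and the 1 of 16 neutrophil genes that was called. Beside these counts, 0.743% of all genes were called higher. The amino acid transporter gene *SLC7A7*, used as a microglia marker, rose from 154, 135 and 105 CPM to 406, 341 and 375 CPM, and *SLC3A2*, for the heavy chain that pairs with it, from 153, 101 and 139.7 CPM to 552, 692 and 550.2 CPM. *SLC7A7*, *CTSZ* and *NCF1* lost their calls without any 1 of 4 or more of the 6 controls, and with scaling to library size alone.

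**Figure D4:**
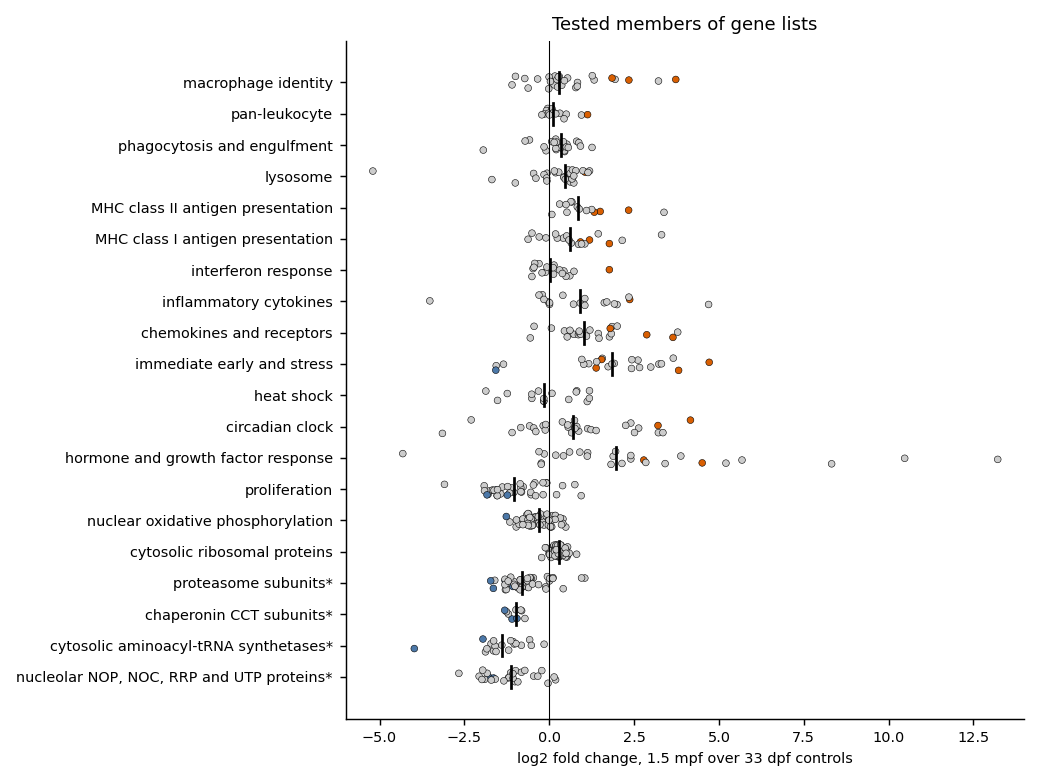
Log2 fold change at 1.5 mpf over 33 dpf in controls (x axis) of the tested genes of 20 lists (y axis). Each point is a gene, orange where called higher, blue where called lower and grey otherwise, the black line is the list's median (1.01 for chemokines and receptors, -1.04 for proliferation), and an asterisk marks lists gathered after values were seen. The other lists were also chosen with earlier results of these data known.

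Genes of other cell types were checked beside these results. Among 18 metaphocyte and epithelial adhesion genes, only *cd4-1* was called, beside 0.743% of all genes higher. This gene, also used for T cells, went from 61.1, 44.7 and 46.3 CPM to 148, 154 and 189 CPM, and its call was lost whenever 1 control was left out. In the list of 27 T and NK cell genes no other was called, although *cd8a* lay at 0.154, 3.97 and 10.4 CPM and 66.5, 87.3 and 93.1 CPM and *cd8b* at 0.231, 7.77 and 0 CPM and 66.2, 75.8 and 118 CPM (edgeR adjusted p = 0.364 and 0.585). Summed, this list held 460.5 to 623.5 CPM at 33 dpf and 1037 to 1153 CPM at 1.5 mpf. *krt8* was the 1 epidermal keratin of 20 that was called, rising by 0.98, and *ms4a17a.10* the 1 gene of 6 of the eosinophil and mast cell list, rising by 1.71 (edgeR adjusted p = 0.0139 and 0.00607), beside 0.743% of all genes higher. *krt8* lost its call without any 1 of 4 of the 6 controls, and both genes did with the 6 controls alone. No gene of the B cell, erythroid, thrombocyte, muscle, fibroblast, endothelial, pigment cell, liver, intestine, nervous, ionocyte or germ line lists was called, beside 1.17% of all genes. All 23 tested pancreas and liver genes nevertheless had positive changes, with a median of 4.12, and 11 were higher in all older than in all younger fish, beside 9.74% of all genes. The liver transcript *apoa2* stood at 8.32, 1.99 and 1.49 CPM and 1176, 73.8 and 89.7 CPM, highest in fish 1 at 1.5 mpf. Without that fish 175 of 18747 genes tested were called, 101 higher and 74 lower, and 144 of them were shared with the 207. The number of class II, class I, chemokine, clock and proliferation genes called in the directions above stayed at 3, 3, 3, 2 and 3, although *RRM1* was no longer among them. It fell from 4 to 3 for immediate early genes called higher, from 2 to 1 for the hormone list and from 3 to 1 for the chaperonin. For the nucleolar family it fell from 2 to 1, and that 1 was neither *NOC2L* nor *RRP12*. It fell to 0 for the inflammatory, microglia, metaphocyte, T and NK cell and oxidative phosphorylation lists, and it rose from 2 to 4 for the tRNA synthetases. The part of these cell types in the changes was not tested.

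The same contrast of ages was then examined in csf1rDM fish, which share no fish with the controls. The paper proposes that macrophages are depleted in csf1rDM fish and that many of their *mpeg1*+ cells are metaphocytes. At 33 dpf, the metaphocyte and epithelial adhesion list held 2767 to 4681 CPM in csf1rDM fish and 860 to 1016 CPM in controls. The complement list held 50.5 to 457.3 CPM and 1169 to 2134 CPM. Genotype and cell type thus cannot be told apart in comparisons of the age changes below. The contrast in csf1rDM fish called 38 genes (0.215%), 28 higher (0.159%) and 10 lower (0.0567%) at 1.5 mpf. That number was 61 without csf1rDM fish 2 at 33 dpf. The library of that fish held 106374902 counts, against 10110020 and 13029138 in fish 1 and 3 of its group. It also had *csf1ra* at 33.9 CPM, against 0 and 0.077 CPM. No gene was called with a spread estimated from the 6 csf1rDM libraries alone (879 genes at an unadjusted p under 0.05 by edgeR), whereas DESeq2 called 1040. Both genotypes called 14 genes, which is 6.76% of the control calls and 36.8% of the csf1rDM calls, in the same direction each time. Among them were *nr1d2a*, *CXCR4*, *tsc22d3*, *arl5c*, *CEBPA*, *CEBPB*, *PDK2*, *SESN1*, *PIK3R1*, *MKNK2*, *rgs13a* and *BTG2*. *CEBPA* rose by 2.51 on the log2 scale in csf1rDM fish (edgeR adjusted p = 0.00112), from a lower start of 28.2, 15.5 and 15.8 CPM to 106, 89 and 144 CPM. *CXCR4* rose by 1.77, from 1854, 1595 and 804 CPM to 4844, 4660 and 4959 CPM. Genes higher in controls had a median csf1rDM change of 0.52, with 97 of 131 positive, whereas genes lower in controls had a median of -0.04, with 42 of 76 negative. *PCNA*, for example, lay at 366, 224 and 297 CPM and 329, 276 and 232 CPM in csf1rDM fish, and *FBL* at 114, 153 and 60.8 CPM and 69.4, 91.2 and 78 CPM. The proliferation list as a whole still had a median csf1rDM change of -0.54, against -1.04 in controls. Its summed level in csf1rDM fish was 4280 to 4655 CPM at 33 dpf and 3842 to 3974 CPM at 1.5 mpf. For the nucleolar family the csf1rDM median was -0.01, against -1.14 in controls.

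A test of the difference between the genotypes' age changes called 42 genes (0.238%), of which 22 had the more positive change in controls (0.125%) and 20 the more negative (0.113%), and 27 were also called in controls. *DUSP1* rose by 2.97 more in controls (log2 scale, SE 0.45, edgeR adjusted p = 0.0282). In csf1rDM fish it lay at 206, 313 and 209.6 CPM at 33 dpf and at 491, 859 and 1085 CPM at 1.5 mpf. *DDIT4*, nearly absent in younger controls, was at 193, 166 and 18.1 CPM in younger and 855, 882 and 930.0 CPM in older csf1rDM fish. *SLC3A2* changed by -0.64 in csf1rDM fish, and *malat1*, an abundant nuclear RNA, by -0.08, against rises of 2.19 and 0.94 in controls. Of genes that fell in controls, *DNAJB11*, *ABCE1* and *UQCRC1* changed by 0.76, 0.71 and 0.90 in csf1rDM fish, and *TP53BP1*, of DNA repair, by 2.03 against -1.92 in controls. The number of such genes is not stable. It was 1 without fish 3 at 33 dpf or without fish 2 at 1.5 mpf, 2 without fish 3 at 1.5 mpf, 20 without fish 1 at 33 dpf (all controls), and 25, 10 and 10 without csf1rDM fish 1, 2 and 3 at 1.5 mpf. With a spread estimated from these 12 libraries alone, it was 5.

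**Figure D5:**
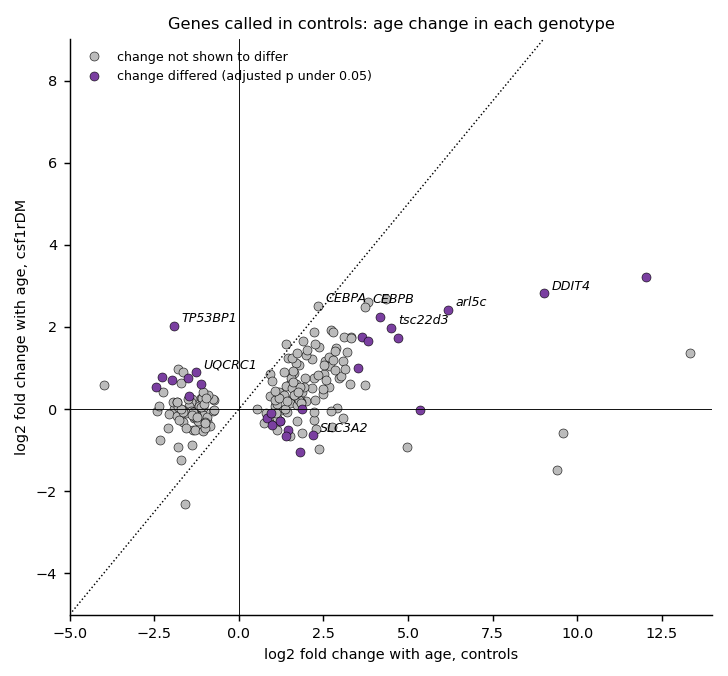
Log2 fold change with age in controls (x axis) and in csf1rDM fish (y axis) of the 207 genes called in controls, with the dotted line at equal change. Purple marks the 27 genes whose change differed between the genotypes, such as *TP53BP1* (-1.92 in controls and 2.03 in csf1rDM fish). Most genes higher in controls lie above 0 on the y axis, and genes lower in controls scatter around 0.

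The *il34* mutants were available at 1.5 mpf only and are set beside the controls without a test of age. For the 5 rises with the smallest p their levels lay between those of the younger and the older controls, at 534, 731 and 828 CPM for *nr1d2a*, 3754, 4817 and 4394 CPM for *CXCR4*, 696, 981 and 842 CPM for *tsc22d3*, 84.1, 252 and 98.3 CPM for *arl5c* and 1246, 1409 and 1851 CPM for *CEBPB*. Other rises lay elsewhere, *DDIT4* above the older controls at 596, 453 and 781 CPM, and *CCNG2* far below them and near the younger ones at 45.9, 49.7 and 93.2 CPM. For the 3 falls with the smallest p, *il34* mutants were above the controls of their own age, at 510.5, 617 and 644 CPM for *PA2G4*, 1677, 1580 and 1602 CPM for *tubb2b* and 804, 735 and 677 CPM for *EIF5A2*, the last below the younger controls. Of the other called proliferation genes, *PCNA* lay within the range of the younger controls at 764, 621 and 720.4 CPM, whereas *RRM1*, at 288, 172 and 178 CPM, lay below all younger controls and overlapped the older ones. Summed over the proliferation list, the median was 6543 CPM in *il34* mutants, beside 3288 CPM in controls of the same age and 7067 CPM in younger controls. In the same order, medians were 2504, 1525 and 3162 CPM for the chaperonin CCT and 3130, 1519 and 3164 CPM for the tRNA synthetases. They were 2564, 1207 and 2499 CPM for the nucleolar family and 4651, 3141 and 5266 CPM for the proteasome. These levels were set side by side only, since the comparison of *il34* mutants with controls uses the same older fish.

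Over all genes, age accounted for 24.7% of the squared Euclidean distance between the 6 controls (permutational analysis of variance on log2 CPM, exact permutation test of a share that has no sign, p = 0.1, which no grouping of 6 fish by 3 can go below). A grouping of 6 fish by 3 takes up part of the distance whatever the labels, so this share alone does not set the ages apart. The older fish were farther from each other, at distances of 365.7 to 396.4, than the younger fish, at 311.8 to 325.5, and distances between ages ran from 309.5 to 398.7. The mean distance was 379.6 between older fish, 366.7 between fish of different age and 317.2 between younger fish.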

How the data were processed

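Single juvenile fish were sorted for GFP+ cells, and libraries were made with SMART-seq V4, which does not mark strand, so overlapping and antisense genes cannot be told apart. Per the submitters' notes, the authors processed reads with CASAVA 1.8, cutadapt, STAR 2.5.4b, Cufflinks 2.2.1, HTSeq 0.11.0 and edgeR, on GRCz10 (danRer10). They deposited raw counts per gene, 5488201 to 106374902 per library. Symbols matched 27000 of 35117 gene IDs. Groups follow the labels, and no per-sample column was left unused (0).

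Counts of all 15 libraries were fitted together in edgeR 4.0.16 (R 4.3.3): filterByExpr, TMM scaling, robust quasi-likelihood test, Benjamini-Hochberg adjustment over 17640 genes, threshold 0.05. Replicates are separate fish. Levels are TMM-scaled CPM. Genes named are the 15 per direction with the smallest p and the 5 with the largest change (mean of at least 10 CPM), called list members (otherwise up to 4 abundant ones), *csf1ra*, *csf1rb*, *mpeg1* and *ptprc*, and up to 15 whose change differed between genotypes. Members and lists were chosen with earlier results of these data known, 5 lists after the values were seen. In data simulated for the comparison of the controls, the 200 changed genes were drawn only from genes above the median level. Among these, a log2 change of 4 was recovered for 61.5%, of 2 for 14.5% and of 1 for 0%. Alternatives were other scalings, filters and thresholds, thinning, a replicate block, DESeq2 1.42.0 and leaving out each fish. Figures used matplotlib 3.10.9.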

Additional observations from a re-analysis of the deposited data

Results flagged for a closer look

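The age change of 42 genes differed between controls and csf1rDM fish by a test of the difference itself (edgeR interaction term, adjusted p under 0.05). The sorted cells of the genotypes differ in type, as given above, and the part of cell type in these differences was not tested. The genes named below are given by their difference on the log2 scale, as the change in controls minus that in csf1rDM fish. Larger in controls were *si:dkey-37f18.3* (8.81), *DDIT4* (6.20), *FNBP1L* (5.38), *arl5c* (3.77), *DUSP1* (2.97), *SLC3A2* (2.83), *tsc22d3* (2.53), *CCNG2* (2.52), *PDK2* (2.18), *sftpbb* (2.05), *nr1d2a* (1.92), *CXCR4* (1.88), *cxcr3.2* (1.65), *krt8* (1.38) and *malat1* (1.02). Lower in controls were *TP53BP1* (-3.95), *DBNL* (-3.05), *pdcd11* (-3.01), *ABCE1* (-2.68), *DNAJB11* (-2.27), *UQCRC1* (-2.17) and *adssl* (-1.79). *si:dkey-37f18.3* had no counts in younger controls, so its difference depends on the prior count and is no bound. *DDIT4* and *FNBP1L* had only 18 and 20 counts in all younger controls, so their differences rest on few counts. Mean levels of *DDIT4* went from 0.54 to 310.8 CPM in controls and from 125.9 to 889 CPM in csf1rDM fish. Those of *FNBP1L* went from 0.846 to 33.3 CPM in controls and from 117.7 to 115.2 CPM in csf1rDM fish.

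The difference for *TP53BP1* passed in 19 of 22 alternatives, those for *DNAJB11* and *arl5c* in 16 each, and that for *si:dkey-37f18.3* in 3.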

How the results depend on the processing

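The age change in controls (207 genes) was called for 205 genes with RLE factors, 203 with upper-quartile factors, 194 without the filter, 222 with a stricter filter, 194 without robust estimation and 210 after thinning. At an adjusted p under 0.01 it was 87, with the 6 controls alone 42 (1627 at an unadjusted p under 0.05), and by DESeq2 876. Leaving out 1 fish gave 99 to 180. In csf1rDM fish (38 genes) the corresponding numbers were 16 at 0.01, 0 with only those libraries and 1040 by DESeq2, and leaving out 1 fish gave 33 to 61. The difference between the genotypes (42 genes) was called for 1 gene at 0.01, 24 with upper-quartile factors, 5 with the 12 libraries alone and 1002 by DESeq2, and leaving out 1 fish gave 1 to 46. The cause of these shifts was not tested. In controls, same-numbered fish of different age did not deviate together (correlations 0.00845, 0.0199 and -0.0295), and the other groups were not compared in this way. Fish 2 had the most counts in all groups at 1.5 mpf and in csf1rDM fish at 33 dpf, but the fewest in controls at 33 dpf. What the replicate number stands for was not tested. With the replicate number as a block, 165 genes were called in controls, 22 in csf1rDM fish and 2 for the difference. With scaling to library size alone, the log2 ratio of summed levels was 0.53 rather than 0.77 for macrophage identity, 2.16 rather than 2.40 for chemokines and 0.85 rather than 1.09 for the clock genes. With that scaling 8 proteasome subunits, 5 chaperonin subunits, 5 tRNA synthetases and 5 oxidative phosphorylation genes were lower. Of all 17640 genes tested, 130 were then lower, against 76 with TMM, and the median change over all genes was -0.17. Of 74 named genes called in controls, none changed direction in any of the 16 alternatives, and between 20 (6 controls alone) and 74 stayed called. In data simulated for the comparison of the controls, with the spread of all 15 libraries, a log2 change of 1 was recovered for 0% of the changed genes. All of those were drawn from genes above the median level. In the real data 188 of the 207 called genes changed by more than 1, so some smaller changes were called. *EIF5A2* was called at -1.01 (edgeR adjusted p = 0.0034). The simulated rate is thus not a limit on what was detected here.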

Other observations

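A class I and a class II gene varied widely between controls of the same age, and neither was called for a change with age. *mhc1uba* had 403, 0.165 and 0.212 CPM in the 3 controls at 33 dpf and 1714, 0.194 and 2292 CPM in the 3 at 1.5 mpf. It had 0.202, 0.321 and 0.154 CPM in csf1rDM fish at 33 dpf, 0.27, 1.04 and 0.293 CPM at 1.5 mpf, and 1472, 2297 and 1924 CPM in *il34* mutants. *mhc2dab* had 721, 1316 and 918 CPM in younger and 2072, 0.777 and 2622 CPM in older controls, the same fish 2 at 1.5 mpf being low in both genes.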
